A study of Mus musculus with 30 samples.

Results

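Retinas of mouse pups injected into the vitreous at postnatal day 5 (P5) with endothelial colony-forming cells (ECFC) were set against retinas injected with saline on the same day. The 2 groups were taken from the sample labels and hold 3 arrays each, 6 of the 30 arrays of the series, and every array holds the total RNA of 1 retina of 1 pup. The P5 ECFC group received 100000 ECFC without CD34+ cells, and the P5 saline group received saline in their place. All pups of both groups then went through oxygen-induced retinopathy (OIR): they were placed in 75% oxygen at P7 for 5 days, so the injection preceded the oxygen. The labels give no strain, no litter and no donor of the cells, and the 2 sources for the collection day differ: each sample is labelled P17, whereas the text on the series' design has retinas injected at P5 collected at P12. The 2 groups compared share whichever day holds. Other samples are used for comparison: ECFC and saline retinas injected at P12 on return to room air (same dose, collection at P17), P5 retinas given 110000 cells as ECFC plus CD34+ cells, and P5 retinas given 10000 CD34+ cells. Untreated OIR and normoxia retinas are quoted for levels only, with 3 arrays a group.

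In OIR, high oxygen stops and prunes the growing retinal vessels, and the retina becomes hypoxic once the pup is back in room air, which drives disordered vessel growth. ECFC are progenitor cells with endothelial potential that are injected to repair or protect such vessels. The probe sets of the array are designed on mouse transcripts, so the readout is taken as that of the host retina. Transcripts of the injected cells were not measured as such, and any signal from them on these probe sets was not tested. The 2 groups answer what the retina of an ECFC-injected pup expressed differently from that of a saline-injected pup. In bulk retina, fewer cells of a type and less RNA per cell cannot be told apart.

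No gene passed the test between P5 ECFC and P5 saline. Of 12393 genes, 0 had a Benjamini-Hochberg adjusted p under 0.05 in limma (0% called), and 779 had an unadjusted p under 0.05 (6.29%), where 619.65 would come from uniform p-values. Among the 779 genes, 317 stood higher (2.56%) and 462 lower (3.73%) in P5 ECFC. That balance turned with the scaling, to 524 higher and 441 lower after quantile normalization and 496 higher and 348 lower after median centring. The 3 ECFC arrays lay above all 3 saline arrays for 432 genes (3.49%) and below them for 753 (6.08%). The median log2 difference over all genes was -0.02, and 45.0% of genes had a positive one. The genes named below are therefore given with their values and as not having passed, unless a test is named. Differences are log2 ECFC minus saline with the standard error of the fit (SE), and array values are log2 expression in the order of replicates 1, 2 and 3. Adjusted p-values are limma's with Benjamini-Hochberg adjustment over all genes. The fit takes 1 spread per gene over all 10 groups. An SE or p-value can therefore be too small for genes that vary more within the P5 groups.

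Retinal markers were present on every array of both groups. The rod genes Gnat1, Pde6b and Sag had log2 levels of 13.05 or more, and Grm6 and Pou4f1 were not analysed here. The lists of rod, cone, bipolar, amacrine and horizontal, and ganglion cell genes had median differences of 0.06, 0.01, 0.00, 0.06 and 0.04. With the lens mean of each array (described next) as a covariate they were -0.05, -0.15, 0.27, 0.15 and 0.41. All 18 ganglion cell genes were then positive, as were 5398 of all 12393 genes. The covariate's slope comes from all 10 groups. In P5 CD34 the lens means were 7.31, 13.16 and 13.02 and the ganglion means 7.98, 9.82 and 8.56. In P5 saline the ganglion means were 9.64, 10.16 and 10.14, lowest on the array with the most lens RNA. The weight of P5 CD34 replicate 1 in the adjusted medians was not tested. Lens genes stood apart between the groups. The mean of the 20 measured lens genes was 9.12, 8.36 and 8.87 on the ECFC arrays and 12.77, 12.22 and 9.95 on the saline arrays, so that no arrays overlapped. That is 8.78 ± 0.39 in ECFC and 11.6 ± 1.49 in saline (SD, n = 3 each; exact permutation test, two-sided, p = 0.1, the smallest that 3 against 3 arrays allow). On the 18 arrays not injected at P5 the same mean lay between 6.12 and 8.34, so all 6 arrays were above that range. Hybridisation control probe sets, which hold no retinal RNA, averaged 12.51, 12.63 and 12.96 on the ECFC arrays and 12.72, 11.92 and 12.03 on the saline arrays (exact permutation test, two-sided, p = 0.3).

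**Figure D1:**
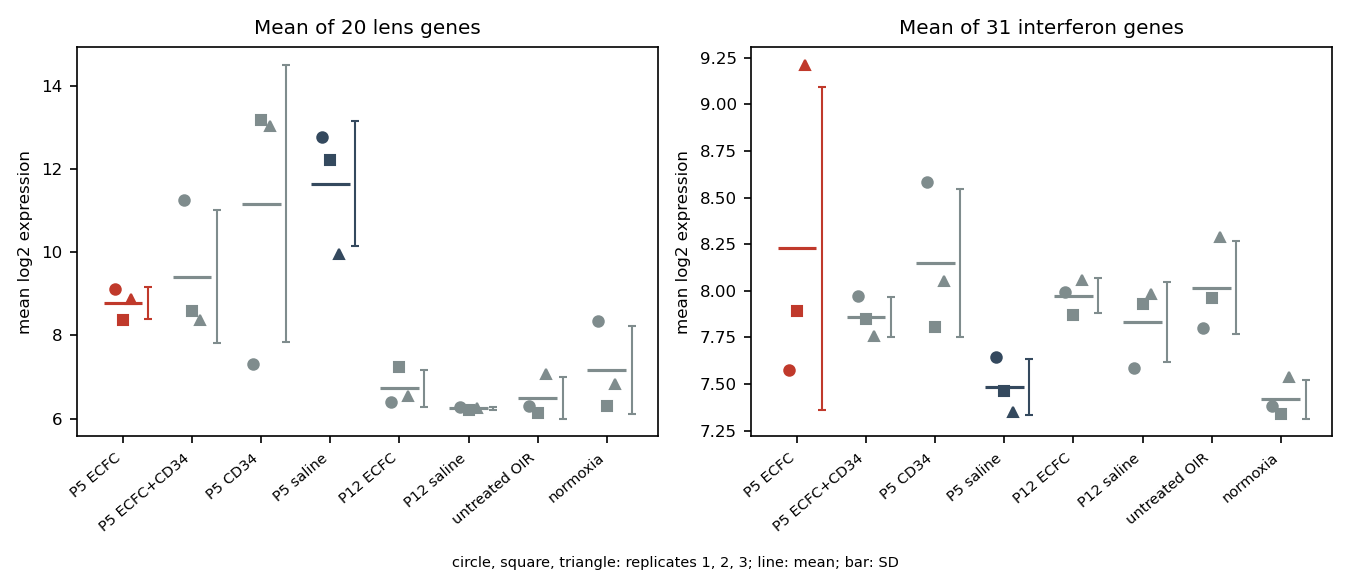
Mean log2 expression of 20 lens genes (left) and of 31 interferon response and antigen presentation genes (right) on each array, by group; symbols are replicates 1, 2 and 3, lines are group means and bars are SD. The lens mean of the 3 P5 ECFC arrays lies between 8.36 and 9.12, below the 9.95 to 12.77 of P5 saline, and 1 P5 ECFC array, replicate 3, has an interferon mean of 9.21.

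Several genes of protein folding in the endoplasmic reticulum (ER) had higher values on all ECFC arrays than on any saline array. When unfolded proteins build up in the ER, the sensor IRE1 splices Xbp1 mRNA, and the XBP1 and ATF6 proteins then bind ER stress response elements and switch on chaperones, while the sensor PERK works through ATF4 on a second set of targets. The list of unfolded protein and integrated stress response genes had 25 measured members, of which 18 had a positive difference, 7 had an unadjusted p under 0.05 with a higher value (2.56% of all genes did) and 1 with a lower one (3.73%). Its median was 0.09 beside -0.02 over all genes. For 8 members the 3 ECFC arrays lay above the 3 saline arrays (3.49% of all genes), and these were all folding factors or their regulator: Xbp1, Hspa5, Hsp90b1, Calr, Canx, Pdia3, Pdia6 and Dnajb9.

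Promoters of 4 genes of this group are printed because they hold the ER stress response element, which XBP1 and ATF6 are known to use. Each is the stretch of 130 bases that ends at the base before the annotated start, read 5′ to 3′ on the gene's strand (RefSeq sequences, mouse build GRCm38.p6), with the element (CCAAT, any 9 bases, CCACG), or its reverse complement, in capitals.
Hspa5, chr2:34771960-34772089, plus strand: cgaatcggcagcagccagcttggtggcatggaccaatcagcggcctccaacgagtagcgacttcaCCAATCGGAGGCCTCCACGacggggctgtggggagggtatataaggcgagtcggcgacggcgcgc
Hsp90b1, chr10:86705445-86705574, minus strand: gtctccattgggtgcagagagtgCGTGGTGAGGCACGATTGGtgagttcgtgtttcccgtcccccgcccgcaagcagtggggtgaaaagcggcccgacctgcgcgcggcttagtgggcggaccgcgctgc
Pdia6, chr12:17266459-17266588, plus strand: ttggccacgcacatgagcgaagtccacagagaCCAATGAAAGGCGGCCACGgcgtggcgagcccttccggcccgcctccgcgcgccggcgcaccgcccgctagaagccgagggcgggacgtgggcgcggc
Creld2, chr15:88819516-88819645, plus strand: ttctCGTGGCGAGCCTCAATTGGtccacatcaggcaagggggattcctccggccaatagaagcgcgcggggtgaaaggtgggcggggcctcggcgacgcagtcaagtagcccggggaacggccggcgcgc
The element begins 65, 107, 98 and 126 bases before the start. Over the 250 bases before the start, on both strands, 6 of the 25 genes of the list hold it (24%: Calr, Canx, Dnajc3, Hsp90b1, Hspa5 and Pdia6), against 37 of 32851 promoters in the RefSeq table (0.113%). These elements are well known in the chaperone genes, so the match describes the list and is no measure of a factor's binding in these retinas.

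Xbp1, the transcription factor spliced by IRE1, had 10.08, 10.12 and 9.84 on the ECFC arrays and 8.98, 9.44 and 9.46 on the saline arrays. Every ECFC array was above every saline array. The difference was 0.72 ± 0.13 (1.65-fold, 95% interval 0.45 to 0.99), with an adjusted p of 0.0888 in limma. The other 3 probe sets of Xbp1 gave 0.56, 0.59 and 0.67. Whether Xbp1 passed depended on the setting. It passed after quantile normalization (adjusted p 0.0172), after median centring (0.0227), with array weights (0.0073), with the mean of the hybridisation controls in the model (0.0018) and without saline replicate 3 (0.041). The gene did not pass with the replicate block (0.129), with the lens mean as a covariate (0.356), without saline replicate 1 (0.477), without any of the other 4 arrays or in the fit on the P5 groups alone (0.999). The difference lay between 0.56 and 0.88 over the 19 alternatives.

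Hspa5, the ER chaperone BiP, had 12.75, 12.78 and 12.61 on the ECFC arrays and 12.17, 12.29 and 12.45 on the saline arrays, a difference of 0.41 ± 0.09 (adjusted p 0.278 in limma). Hsp90b1, the ER form of HSP90, had 12.35, 12.43 and 12.37 in ECFC and 11.72, 12.10 and 12.16 in saline, a difference of 0.39 ± 0.10. Both chaperones kept the groups apart by less than 0.2 between the nearest arrays. Second probe sets of the 2 genes gave 0.50 and 0.37. Dnajb9, a co-chaperone of BiP, differed by 0.42 ± 0.12, the disulfide isomerase Pdia6 by 0.37 ± 0.12 (its dimmer second probe set by -0.16) and Pdia3 by 0.26 ± 0.13. The lectin chaperones Calr and Canx differed by 0.22 ± 0.10 and 0.26 ± 0.10. Manf and Creld2, secreted and ER-resident products of the same response that were chosen after their values were seen, differed by 0.43 ± 0.12 and 0.40 ± 0.12.

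Genes of the PERK arm mostly had values near 0. Atf4, the transcription factor of that arm, had 12.16, 12.24 and 11.99 in ECFC and 12.002, 12.12 and 12.13 in saline, a difference of 0.04 ± 0.11. Ddit3, the factor CHOP, differed by 0.08 ± 0.14 and Trib3, a pseudokinase induced by both, by -0.07 ± 0.23. Those 3 genes overlapped between the groups. Slc7a11, the cystine transporter and an ATF4 target, differed by 0.36 ± 0.31, and its groups overlapped as well. Both Phgdh and Slc3a2, genes of amino acid supply, lay lower on every ECFC array. Phgdh, of serine synthesis, differed by -0.48 ± 0.26, and Slc3a2, the heavy chain of amino acid exchangers, by -0.28 ± 0.13.

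**Figure D2:**
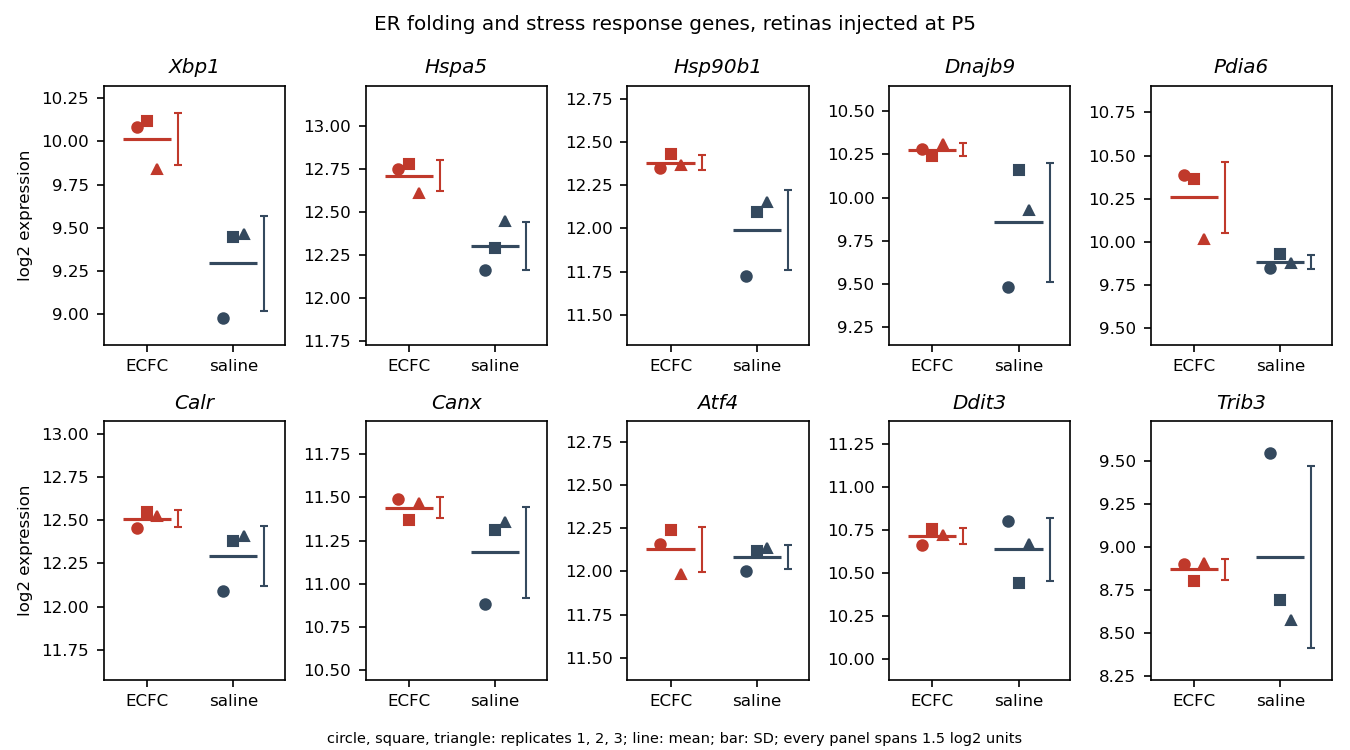
Log2 expression of 7 ER folding genes and of Atf4, Ddit3 and Trib3 on each array of P5 ECFC (left in each panel) and P5 saline (right); symbols are replicates 1, 2 and 3, lines are means and bars are SD, and each panel spans 1.5 log2 units. The arrays of the 2 groups do not overlap for the 7 folding genes and do for the other 3.

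Saline replicate 1, the array with the most lens RNA, was also the lowest of the 6 for 12 of the 25 genes of this list (25.8% of all genes). With the lens mean of each array as a covariate, Xbp1 differed by 0.66 ± 0.15 and Hspa5 by 0.30 ± 0.10, while the median of the list was -0.03 and that of all genes -0.03. Without saline replicate 1 the median of the list was 0.12, with 21 of 25 members positive.

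The other injected P5 groups were set against the same 3 saline arrays, so their values are given side by side with no count of shared genes. By the level of Xist, the RNA of the inactive X chromosome, 1 of 3 retinas was female in P5 ECFC and in P5 saline. In P5 ECFC+CD34 it was 3 of 3 and in P5 CD34 2 of 3. Xbp1 averaged 10.02 ± 0.15 in P5 ECFC, 10.07 ± 0.06 in P5 ECFC+CD34 and 10.01 ± 0.04 in P5 CD34, against 9.29 ± 0.28 in P5 saline (SD, n = 3 each). Hspa5 differed from P5 saline by 0.41 with ECFC, 0.37 with ECFC+CD34 and 0.49 with CD34, and Hsp90b1 by 0.39, 0.46 and 0.39. The P5 saline mean of Xbp1 was thus below that of the 3 cell-injected P5 groups. Untreated OIR retinas had 10.06 ± 0.09 and normoxia retinas 9.77 ± 0.03.

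Interferon response and antigen presentation genes formed the list with the highest median. Interferons act through STAT and IRF factors to switch on GTPases, the immunoproteasome and MHC molecules, which show antigen to T cells. Of 31 measured genes, 30 had a positive difference, 20 had an unadjusted p under 0.05 with a higher value (2.56% of all genes did) and for 10 the ECFC arrays lay above all saline arrays (3.49% of all genes did). The median was 0.80. One array carried much of it. ECFC replicate 3 was the highest of the 6 arrays for 30 of the 31 genes, and the median gene stood 0.12, 0.37 and 1.88 above the mean of the saline arrays in ECFC replicates 1, 2 and 3. Without ECFC replicate 3 the median was 0.31, with 24 of 31 genes positive and 3 higher at an unadjusted p under 0.05 (378 of all 12393 genes). It was 0.65 with the lens mean as a covariate, with 30 positive and 7 higher at that p (304 of all 12393 genes).

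**Figure D3:**
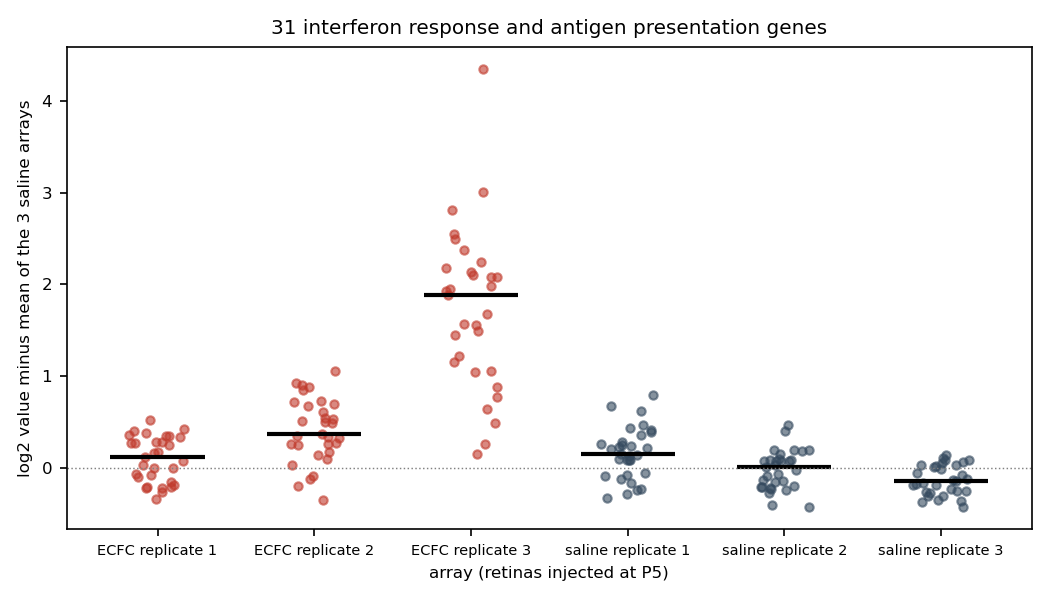
Each point is 1 of 31 interferon response and antigen presentation genes on 1 of the 6 arrays, as its log2 value minus the mean of the 3 P5 saline arrays; black lines are medians. The medians are 0.12, 0.37 and 1.88 in ECFC replicates 1, 2 and 3 and 0.14, 0.01 and -0.15 in saline replicates 1, 2 and 3.

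Igtp and Irgm2 encode immunity-related GTPases, which are induced by interferon gamma, and their promoters are shown because a GAS-type motif (TTC, any 3 bases, GAA) and an ISRE-type motif (GAAA, any 2 bases, GAAA; bound by IRF factors) stand side by side in them, both in capitals. The windows are the 80 bases before the start (RefSeq, GRCm38.p6).
Igtp, chr11:58199476-58199555, plus strand: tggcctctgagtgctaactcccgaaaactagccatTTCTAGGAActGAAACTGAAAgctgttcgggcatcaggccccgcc
Irgm2, chr11:58214897-58214976, plus strand: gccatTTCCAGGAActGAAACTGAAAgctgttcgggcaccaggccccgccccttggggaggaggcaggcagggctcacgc
Within 250 bases of the start, on either strand, the ISRE-type letters were found for 12 of the 28 list members with a promoter in the table (42.9%), against 2.98% of all promoters, and the GAS-type letters for 7 of 28 (25%), against 7.02%. As above, members were counted by gene and the background by promoter. The 2 motifs do not overlap each other in the windows shown, and a match describes letters only.

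Igtp had 7.58, 8.16 and 9.61 on the ECFC arrays and 7.00, 7.38 and 7.31 on the saline arrays, a difference of 1.22 ± 0.30 (adjusted p 0.356 in limma). Irgm2 had 7.08, 7.79 and 9.58 in ECFC and 6.65, 6.63 and 7.01 in saline, a difference of 1.39 ± 0.38. In both GTPases all ECFC arrays were higher than the saline arrays and replicate 3 was the farthest. Gbp6, a guanylate-binding protein, differed by 1.5 ± 0.41, Irgm1 by 0.80 ± 0.22 and Mndal, an interferon-inducible DNA-binding protein, by 1.08 ± 0.24 (adjusted p 0.278), also without overlap. The transcription factor Irf1 had 8.21, 8.79 and 9.23 in ECFC and 8.32, 7.96 and 8.27 in saline, so that 1 ECFC array lay among the saline arrays. Ifi35 was the member with a negative difference (-0.07 ± 0.12).

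The MHC genes followed the same array. B2m, the light chain of MHC class I, had 11.49, 11.85 and 13.28 on the ECFC arrays and 11.23, 11.33 and 10.86 on the saline arrays, and the class I heavy chain H2-K1 had 10.16, 10.24 and 11.82 against 9.66, 9.82 and 9.74. The class II chain H2-Aa had 4.82, 6.09 and 9.39 in ECFC and 5.46, 4.62 and 5.02 in saline. ECFC replicate 1 thus lay within the saline values for H2-Aa and above them for B2m and H2-K1. Psmb8, a subunit of the immunoproteasome, differed by 1.01 ± 0.32. Ccl5, a T cell chemokine, had 4.75, 5.87 and 8.997 in ECFC and 5.40, 4.81 and 4.91 in saline, and Gzma, a granzyme of T and NK cells, had 3.98, 4.09 and 6.73 against 4.003, 4.12 and 3.94. Both genes were highest on ECFC replicate 3, and Gzma was level with saline on the other 2 ECFC arrays. All saline values of H2-Aa, Ccl5 and Gzma, and those of ECFC replicate 1, lay within the 3.84 to 5.70 given above for Eif2s3y and Xist. The size of the differences of these genes is therefore uncertain. Of the 14 measured T and NK cell genes, 8 were highest on that array and 6 on saline replicate 1. The mean of the 14 genes was 5.53, 5.63 and 6.41 in ECFC and 5.97, 5.63 and 5.74 in saline. The same 2 arrays had the narrowest spread of values. The interquartile range of all values on an array was 3.66, 3.62 and 3.35 in ECFC and 3.33, 3.62 and 3.60 in saline. The part of T and NK cells in the interferon values was not tested, nor was the part of array spread in the values of dim genes.

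Birc3, an inhibitor of apoptosis and NF-kappaB target, had the smallest p of all genes in this comparison. It had 5.98, 6.13 and 6.53 on the ECFC arrays and 5.51, 5.60 and 5.56 on the saline arrays, a difference of 0.65 ± 0.12 (1.57-fold, adjusted p 0.0888 in limma). The groups did not overlap, and a second, dimmer probe set gave 0.29 ± 0.17. All 3 saline values of Birc3 lay within the 3.84 to 5.70 read by Eif2s3y on female and Xist on male arrays. The size of its difference is therefore uncertain. Leaving out ECFC replicate 1 gave 6 genes that passed, Birc3, Gbp6, Igtp, Irf1, Irgm2 and Mndal. Gimap4, a GTPase of lymphocytes and endothelium, differed by 0.95 ± 0.23, and its dimmer probe set by 0.30 ± 0.27.

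Microglia and macrophage genes had the second highest median, 0.45, with 22 of 25 measured genes positive and 3 at an unadjusted p under 0.05 with a higher value (2.56% of all genes). ECFC replicate 3 was the highest of the 6 arrays for 19 of the 25. Aif1, the microglial protein IBA1, had 7.80, 7.51 and 8.60 in ECFC and 7.16, 6.95 and 6.96 in saline, a difference of 0.95 ± 0.34. The lysosomal protease Ctss differed by 0.998 ± 0.39, the complement chain C1qb by 0.84 ± 0.38 and lysozyme, Lyz2, by 1.53 ± 0.78, each with overlap between the groups. Cx3cr1, the fractalkine receptor that marks microglia, differed by 0.27 ± 0.23. With the lens mean as a covariate the median of the list was -0.03, without 1 array it lay between 0.27 (without saline replicate 3) and 0.82 (without saline replicate 1), with 0.73 without ECFC replicate 2 and 0.31 without ECFC replicate 3. The covariate's slope comes from all 10 groups. In P5 CD34 the lens means were 7.31, 13.16 and 13.02 and the microglia means 10.20, 7.86 and 8.52. In P5 saline the microglia means were 8.18, 7.58 and 7.43, in the same order as the lens means. The weight of P5 CD34 replicate 1 in the adjusted median was not tested.

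Genes of tissues next to the retina stood lower in P5 ECFC. All 20 lens genes had a negative difference, 14 with an unadjusted p under 0.05 (3.73% of all genes were lower at that p) and 15 without overlap (6.08% of all genes had none in that direction), and their median was -3.22. Bfsp1, a filament protein of lens fibre cells, had 7.13, 6.90 and 6.92 on the ECFC arrays and 13.23, 12.25 and 8.90 on the saline arrays, a difference of -4.48 ± 1.32 (adjusted p 0.455 in limma). The gamma-crystallins Crygd and Crygb differed by -3.72 ± 1.10 and -3.62 ± 1.15 and the alpha-crystallin Cryaa by -2.57 ± 1.31. Saline replicate 1 was the highest of the 6 arrays for all 20 lens genes (28.8% of all genes). Genes of the retinal pigment epithelium had a median of -0.45, with 19 of 23 negative. Leaving out 1 array moved this median to between -0.80 (without saline replicate 1) and -0.03 (without saline replicate 2), and it was -0.26 without ECFC replicate 1 and -0.29 without ECFC replicate 2. Rpe65, the isomerase of the visual cycle, had 5.24, 8.48 and 9.35 in ECFC and 7.96, 10.23 and 10.01 in saline, Lrat, which esterifies retinol, differed by -1.37 ± 0.54 and the lactate transporter Slc16a8 by -0.90 ± 0.23. The Rpe65 values overlapped between the groups and were lowest on ECFC replicate 1.

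Several stress and antioxidant genes also stood lower in P5 ECFC. Hmox1, the heme-degrading enzyme induced by oxidative stress, had 7.75, 7.18 and 7.61 on the ECFC arrays and 12.66, 10.27 and 7.95 on the saline arrays, a difference of -2.78 ± 0.99 (adjusted p 0.636 in limma). The saline arrays of Hmox1 stood in the same order as their lens means. The metallothioneins Mt1 and Mt2, which bind metals, differed by -0.60 ± 0.26 and -0.96 ± 0.44, the fatty acid carrier Fabp5 by -0.91 ± 0.31 and the glutathione transferase Gstm1 by -0.70 ± 0.22. Of the 24 antioxidant and glutathione genes, 15 had a negative difference and 5 an unadjusted p under 0.05 with a lower value (3.73% of all genes). With the lens mean as a covariate 2 members had such a p, as had 609 of all 12393 genes in that fit. The list median was then -0.04, beside -0.08 without the covariate. With the covariate Fabp5 differed by -0.12 ± 0.17, Hmox1 by -1.08 ± 0.93 and Gstm1 by -0.42 ± 0.23, while Mt1 and Mt2 differed by -0.80 ± 0.29 and -1.32 ± 0.49.

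**Figure D4:**
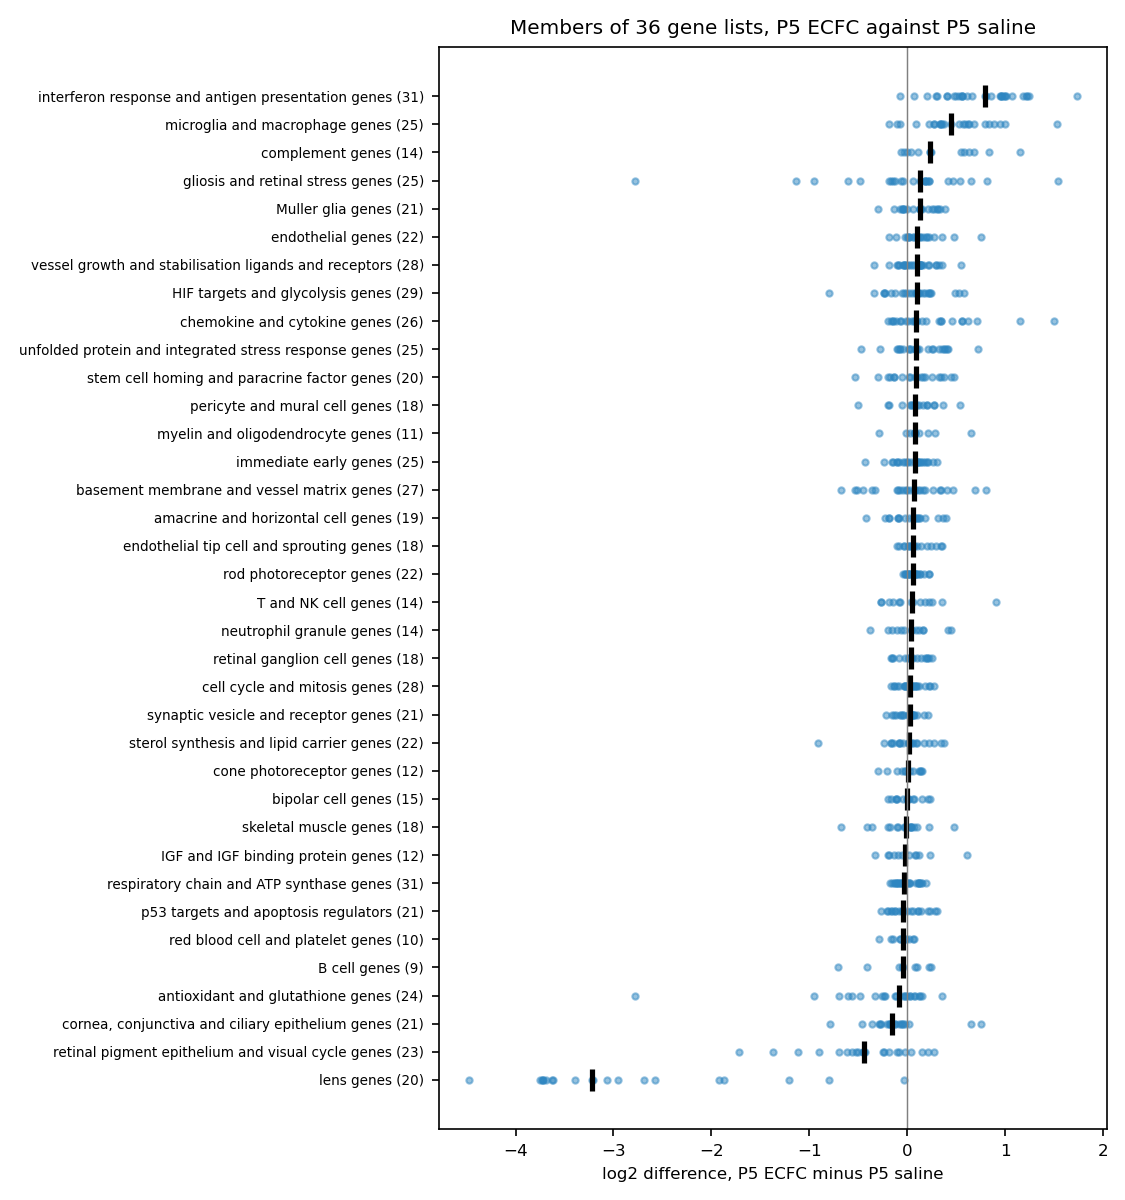
Log2 difference, P5 ECFC minus P5 saline, of every measured member of 36 gene lists, with the number of members in parentheses; each point is 1 gene and black ticks are list medians. Most medians lie close to 0, with interferon response genes (0.80) and microglia genes (0.45) at the high end and lens genes (-3.22) and pigment epithelium genes (-0.45) at the low end.

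Vessel genes, the target of the treatment, showed small differences. Of 18 endothelial tip cell and sprouting genes, 14 were positive with a median of 0.06 and none at an unadjusted p under 0.05. Of 22 endothelial genes, 19 were positive (median 0.11), with 1 higher at that p (2.56% of all genes were). Of 18 pericyte and mural cell genes, 14 were positive (median 0.09, 0 at that p). Saline replicate 1 was the lowest array for 15 of the 22 endothelial and 10 of the 18 pericyte genes (25.8% of all genes). Without it the 3 medians were 0.01, 0.02 and 0.03. They were 0.03, 0.30 and 0.17 with the lens mean as a covariate, with 2, 4 and 4 genes higher at an unadjusted p under 0.05 (304 of all 12393 genes in that fit). Pecam1 and Cdh5, adhesion molecules of all endothelium, differed by 0.00 ± 0.17 and 0.19 ± 0.19, and a second, dimmer probe set of Cdh5 gave 0.47 ± 0.19 (unadjusted p 0.0215, adjusted p 0.672 over all probe sets in limma). Pecam1 had a 95% interval of -0.35 to 0.36, so a 1.5-fold change in either direction lies outside it. The tip cell genes Esm1, Apln and Angpt2 differed by 0.05 ± 0.48, -0.03 ± 0.35 and -0.08 ± 0.31, and Adm and Pdgfb, which recruits pericytes, by 0.10 ± 0.39 and 0.14 ± 0.17. For pericytes, the receptor Pdgfrb differed by 0.03 ± 0.17, Rgs5 by 0.28 ± 0.17 and Cspg4, the proteoglycan NG2, by 0.37 ± 0.18. Dimmer probe sets gave 0.03, 0.25 and 0.10 for Rgs5 and 0.14 for Cspg4. Plvap, a protein of leaky endothelium, differed by 0.10 ± 0.17.

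Ets1 and Tspan12 were higher at an unadjusted p under 0.05. Ets1, a transcription factor of endothelium, had 8.75, 8.50 and 8.68 on the ECFC arrays and 7.16, 8.40 and 8.12 on the saline arrays (0.75 ± 0.29). Its other, dimmer probe sets gave 0.26, 0.23 and 0.81. Tspan12, which helps norrin signal through Frizzled in retinal vessels, had 7.63, 7.31 and 6.73 in ECFC and 6.28, 7.10 and 6.63 in saline (0.55 ± 0.21), with overlap. In both genes saline replicate 1 was the lowest array. Vegfa, the main angiogenic factor of the ischaemic retina, had 10.02, 10.01 and 9.85 in ECFC and 10.26, 10.31 and 10.32 in saline, a difference of -0.33 ± 0.18, while its other probe set gave 0.11 ± 0.14. The 2 probe sets of Vegfa disagreed in direction. The basement membrane chain Col4a1 lay lower on every ECFC array (-0.54 ± 0.24), as did Col6a1 (-0.45 ± 0.18), and the fibrillar collagen Col3a1 higher with overlap (0.81 ± 0.40).

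Of 29 hypoxia-inducible factor targets and glycolysis genes, 19 were positive with a median of 0.10, and 3 had an unadjusted p under 0.05 with a higher value (2.56% of all genes). The list median was -0.04 with the lens mean as a covariate, with 12 positive, 1 higher and 3 lower at that p. Of all 12393 genes, 304 were higher and 609 lower at that p in the same fit. Hk2, the hexokinase of rod glycolysis, had 11.11, 10.92 and 11.03 on the ECFC arrays and 10.53, 10.26 and 10.52 on the saline arrays, a difference of 0.58 ± 0.14 (adjusted p 0.345 in limma). The groups were apart by more than the range within each. Pfkl, the phosphofructokinase of liver type, differed by 0.49 ± 0.18 and the lactate exporter Slc16a3 by 0.53 ± 0.21, both without overlap. With the covariate Hk2 differed by 0.39 ± 0.14, Pfkl by 0.25 ± 0.19 and Slc16a3 by 0.30 ± 0.23.

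Glial genes were mixed. Gfap, the intermediate filament of reactive astrocytes and Muller glia, had 9.05, 10.32 and 10.05 in ECFC and 10.78, 7.96 and 8.24 in saline (0.81 ± 0.72), and Lcn2, an acute phase protein of reactive glia, had 6.71, 7.72 and 10.32 against 8.59, 7.58 and 7.34 (0.41 ± 1.13). In each gene 1 array stood far from its group, saline replicate 1 for Gfap and ECFC replicate 3 for Lcn2. The glutamate transporter Slc1a3 differed by 0.31 ± 0.11 and Gpr37 by 0.39 ± 0.16 without overlap, and the progenitor factor Sox2 by 0.33 ± 0.15 with it. The dimmer probe sets of Slc1a3 gave 0.10 ± 0.18 and 0.12 ± 0.17. Among neuronal genes, the rod exchanger Slc24a1 differed by 0.22 ± 0.09 and the short-wave opsin Opn1sw by -0.29 ± 0.16. The dimmer probe set of Opn1sw gave 0.11 ± 0.19, in the other direction. Prox1, a factor of horizontal and amacrine cells, differed by -0.42 ± 0.19.

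Among the genes with the smallest p in the lower direction were Slc44a4 and Vps33b. Slc44a4, a choline transporter family member, had 5.13, 5.00 and 5.00 on the ECFC arrays and 5.56, 5.90 and 5.56 on the saline arrays, a difference of -0.63 ± 0.13 (adjusted p 0.163 in limma). Vps33b, which acts in vesicle fusion, had 10.10, 9.95 and 9.88 in ECFC and 10.62, 10.38 and 10.38 in saline (-0.48 ± 0.10, adjusted p 0.163). The groups were apart for both. Slc44a4 read at the dim end of the array, where Eif2s3y, a Y-linked gene, had 3.84 to 4.83 on female arrays and Xist, the RNA of the inactive X chromosome, 4.48 to 5.70 on male arrays. All ECFC values and 2 saline values of Slc44a4 lay within the Xist range, so the size of its difference is uncertain. Cyb5rl differed by -0.55 ± 0.12, Traf3ip2, an adaptor of interleukin 17 signalling, by -0.46 ± 0.11 and the zinc finger factor Zbtb7b by -0.33 ± 0.08. The dimmer probe set of Zbtb7b gave -0.05 ± 0.11. Plce1, a phospholipase C, differed by 0.55 ± 0.13 in the other direction.

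The ECFC difference was then compared between injection at P5 and injection at P12 in 1 model, as (P5 ECFC minus P5 saline) minus (P12 ECFC minus P12 saline). The 2 differences share no array, but injection day, oxygen before or after the injection and, per the design text, collection day change together and cannot be told apart. A technical measure changed with them too. The hybridisation control mean was 12.51 to 12.96 in P5 ECFC and 11.92 to 12.72 in P5 saline. It was 13.42 to 13.65 in P12 ECFC and 13.25 to 13.48 in P12 saline. In all, 4 genes passed, 0.0323% of 12393, with 1480 at an unadjusted p under 0.05 (11.9%, of which 4.28% with a more positive and 7.67% with a more negative difference at P5). Xbp1 was the gene that passed with a more positive difference at P5 (0.00807%), and Nectin4, Slc2a2 and H2bc18 passed with a more negative one (0.0242%). These calls were not stable: 0 genes passed with the lens mean as a covariate, 0 without dim genes (a filter that removes Nectin4, Slc2a2 and H2bc18 themselves and under which Xbp1 had an adjusted p of 0.081), Nectin4 alone passed with the replicate block, and 0 passed without P5 ECFC replicate 2, P5 saline replicate 1, P12 ECFC replicate 2, P12 ECFC replicate 3 or P12 saline replicate 1. Slc14a1 alone passed in the fit on the 4 groups compared.

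For Xbp1 the P5 difference was 0.72 and the P12 difference -0.31, so they differed by 1.03 (adjusted p 0.0445 in limma). Xbp1 had 9.38, 9.42 and 9.22 on the P12 ECFC arrays and 9.58, 9.49 and 9.89 on the P12 saline arrays. ECFC arrays were thus all above saline arrays at P5 and all below them at P12. Of the 25 genes of the stress response list, 11 had an unadjusted p under 0.05 for a more positive difference at P5 (4.28% of all genes) and the list median of that difference was 0.34, beside -0.03 over all genes. Hspa5 differed by 0.61 between the days, Pdia6 by 0.77 and Creld2 by 0.80 (adjusted p 0.119 in limma for each of the 3), with P12 differences of -0.20, -0.40 and -0.40.

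Nectin4, a cell adhesion protein of epithelia, had 7.19, 6.78 and 6.46 on the P5 ECFC arrays and 7.65, 7.43 and 7.28 on the P5 saline arrays, and 7.40, 7.65 and 7.77 on the P12 ECFC arrays and 6.13, 6.61 and 6.72 on the P12 saline arrays. The differences of -0.64 at P5 and 1.12 at P12 were apart by -1.77 (adjusted p 0.0129 in limma). Its other probe set gave -0.09 ± 0.15 at P5. Slc2a2, the glucose transporter GLUT2, had 5.70, 6.43 and 6.54 on the P12 ECFC arrays, and read 4.48 to 4.84 in P5 ECFC, 4.81 to 5.20 in P5 saline and 4.98 to 5.29 in P12 saline. Those last 3 groups lay within the 3.84 to 5.70 read by Eif2s3y on female and Xist on male arrays, so no difference at P5 is given. The fitted value between days was -1.48 (adjusted p 0.0445 in limma), and its size is uncertain. H2bc18, a histone H2B gene, had 5.86, 5.98 and 6.05 on the P12 ECFC arrays and likewise read within that range in the other 3 groups, with a fitted value of -0.91 (adjusted p 0.0445). H2bc18 is 1 of a family of near-identical histone genes, and its probe set may read others.

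**Figure D5:**
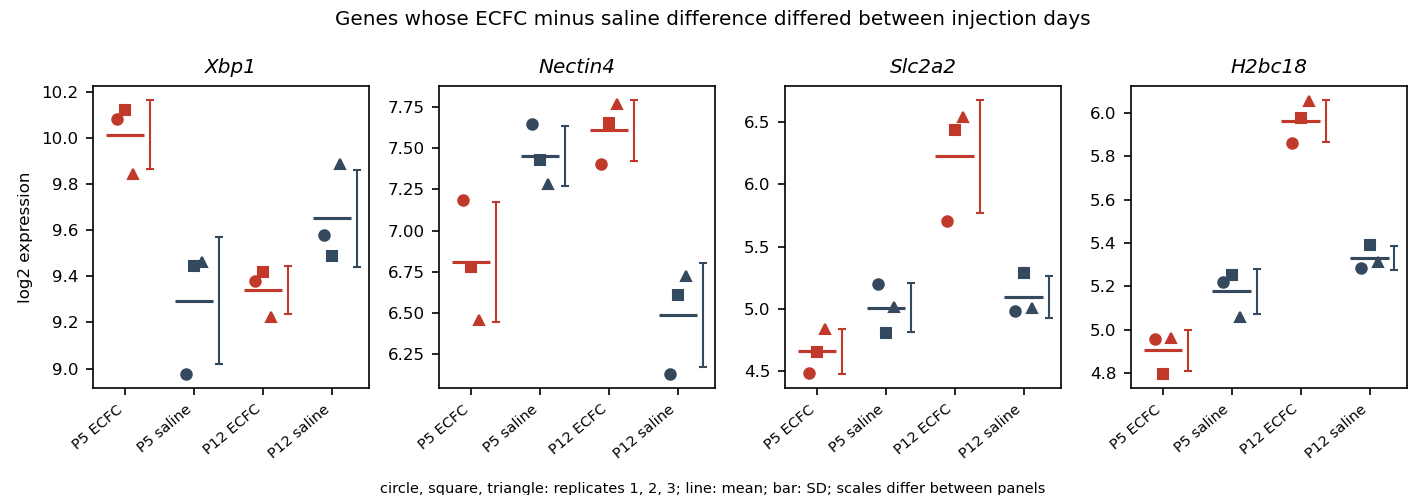
Log2 expression of Xbp1, Nectin4, Slc2a2 and H2bc18 on each array of P5 ECFC, P5 saline, P12 ECFC and P12 saline; symbols are replicates 1, 2 and 3, lines are means and bars are SD, and scales differ between panels. For Xbp1 ECFC lies above saline at P5 and below it at P12, for Nectin4 the order is the reverse in group means, and Slc2a2 and H2bc18 are highest on the P12 ECFC arrays.

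The vessel and hypoxia lists lay on opposite sides of 0 on the 2 days, though no member passed the test of the difference between days. Sprouting genes had a median of 0.06 at P5 and -0.33 at P12, endothelial genes 0.11 and -0.23, hypoxia and glycolysis genes 0.10 and -0.14, and cell cycle genes 0.03 and -0.24. Of the 28 cell cycle genes, 10 had an unadjusted p under 0.05 for a more positive difference at P5, where 4.28% of all genes did. So had 5 of 22 endothelial and 8 of 29 hypoxia genes. The interquartile range of an array was 3.40, 3.04 and 3.20 in P12 ECFC and 3.42, 3.47 and 3.43 in P12 saline. The dim neutrophil, T and NK cell and B cell lists had P12 medians of 0.34, 0.34 and 0.29, beside 0.02 over all genes. The part of array spread in the differences between days was not tested.

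ECFC alone was also compared with ECFC plus CD34+ cells, both injected at P5. By the level of Xist, 1 of 3 retinas was female with ECFC alone and 3 of 3 with both cells. Sex thus differs in part with the treatment here. No gene passed, with 0 of 12393 (0%) at an adjusted p under 0.05 in limma and 151 at an unadjusted p under 0.05 (1.22%). Birc3, with a difference of 0.49, and Emid1, an extracellular protein, with 0.69 had among the smallest p-values. For Xbp1 the difference between the 2 cell treatments was -0.05 and for Hspa5 0.04. Igtp was higher by 0.70 in ECFC alone, Ccl5 by 1.39 and B2m by 0.52, and none of these passed.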

How the data were processed

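Expression was measured on arrays of mouse retinal RNA, 3 arrays in each of 10 groups; groups and doses were taken per the labels. The authors deposited 1 log2 value per probe set and array (22690 probe sets). Partek is named, without a version, in the submitters' processing notes; how signals were summarised and normalized is not given in the sources used here. RNA had been prepared with RNeasy, amplified with Ovation PicoSL and labelled with Encore Biotin, per the labels' protocols.

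The deposited log2 values were used unscaled. A single gene symbol was annotated for 20380 probe sets, several for 691 and none for 1555, and 64 were controls. Of the first, 29 had an identifier absent from the RefSeq table. The brightest probe set per symbol was kept, which left 12393 genes. limma 3.58.1 (R 4.3.3) was fitted on all 30 arrays with 1 mean per group (20 residual degrees of freedom), with 3 contrasts, two-sided, and Benjamini-Hochberg adjustment over all genes; a gene was called at an adjusted p under 0.05. Exact permutation tests used SciPy 1.17.1. A simulation of P5 ECFC against P5 saline held 12393 genes, 200 of them changed. For a log2 change of 0.5 the test found 34.5% of the changed genes and made 6 false calls. For a change of 1 the share found was 91.5% (14 false calls), and for a change of 2 it was 98% (11 false calls). These shares need not hold for the real arrays, whose spread differed between groups. Bfsp1 (-4.48) and Hmox1 (-2.78) did not pass between P5 ECFC and P5 saline. The number of arrays limits the precision. The labels do not say whether pups came from separate litters, so limma's p-values measure the spread between retinas, taken over all 10 groups. That spread was not equal between groups: the SD of the interferon list mean was 0.87 in P5 ECFC and 0.15 in P5 saline.

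The comparison, the 36 gene lists (826 members, 739 measured) and the genes named were chosen with earlier results of these data known. The naming rule took the 8 genes of smallest p in each direction, up to 3 members of each list with the largest moderated t, and a set of vessel and glial genes; for the other 2 contrasts, called genes or the 3 of smallest p. Other genes named, among them Manf, Creld2, Pdia3, Pdia6, Calr, Canx, Dnajb9, Atf4, Ddit3, Trib3, Slc7a11, Phgdh, Slc3a2, the MHC genes, Irgm2, Gbp6 and Ifi35, were chosen after their values were seen. Arrays with the same replicate number did not deviate together (residual correlations of -0.45, 0.07 and -0.24 between P5 ECFC and P5 saline), so no pairing was used. Alternatives were other scalings, probe set choices, filters, fits and covariates, and leaving out each array.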

Additional observations from a re-analysis of the deposited data

Results flagged for a closer look

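The 4 genes Xbp1, Nectin4, Slc2a2 and H2bc18 differed in their ECFC minus saline difference between injection at P5 and injection at P12, by the test of that difference in limma. The size of the difference between days was 1.03 for Xbp1, -1.77 for Nectin4, -1.48 for Slc2a2 and -0.91 for H2bc18 on the log2 scale, with 3 arrays in each of the 4 groups. Slc2a2 and H2bc18 read at the dim end of the array in all but the P12 ECFC group, so the size of their values is uncertain. With the lens mean as a covariate 0 of the 4 passed, without dim genes Xbp1 was the one still tested and did not pass, and with the replicate block Nectin4 alone did. None passed without P5 ECFC replicate 2, P5 saline replicate 1, P12 ECFC replicate 2, P12 ECFC replicate 3 or P12 saline replicate 1. Injection day and the order of injection and oxygen change together in these groups and cannot be told apart, and so does collection day if the series' design text holds, whereas the labels give P17 for all. The hybridisation control mean changed with them as well, with every P12 array of these groups above every P5 array.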

How the results depend on the processing

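Between P5 ECFC and P5 saline the number of genes that passed was 0, and it was 2 after quantile normalization (Aqp7 and Xbp1), 1 after median centring (Xbp1), 1 over all probe sets (one with no single gene symbol), 39 with array weights, 1 with the replicate block (Birc3) and 641 with the mean of the hybridisation controls as a covariate. Leaving out 1 array gave 0 to 6 genes, 6 without ECFC replicate 1 and 5 without saline replicate 3. For the difference between injection days the number was 4, and it was 7 after quantile normalization, 2 over all probe sets, 0 without dim genes, 1457 with array weights, 1 with the replicate block, 1 on the groups compared alone, 0 with the lens mean as a covariate and 1489 with the hybridisation control mean; leaving out 1 array gave 0 to 32 (32 without P12 ECFC replicate 1, 12 without P5 ECFC replicate 3). For the difference between days, adjusted p over these settings reached 0.22 for Xbp1 and 0.18 for Nectin4. ECFC against ECFC+CD34 gave 5 with array weights, 1 (Cryga) with the lens mean on the P5 groups alone, and 0 under the others. The fit that gave Cryga was an alternative chosen after seeing the data, and Cryga is itself among the genes of the lens mean. The cause of these shifts was not tested. The lens mean difference of -2.86 ran from -3.71 to -2.30 and the hybridisation control difference of 0.48 from 0.33 to 0.73 when 1 array was left out. Differences changed sign for some genes, most of them near 0. Cryaa, with a reported difference of -2.57, was not near 0, and it is among the genes that make up the lens mean. With array weights these were Trib3 (0.16), Apln (0.0099) and Cdh5 (-0.0015). With the lens mean as a covariate they were Atf4 (-0.067), Ddit3 (-0.11), Cx3cr1 (-0.0305), Cryaa (1.05), Esm1 (-0.16), Adm (-0.33) and Lcn2 (-0.16), and on the P5 groups alone Atf4 (-0.066), Ddit3 (-0.16), Cx3cr1 (-0.0398), Cryaa (0.87), Esm1 (-0.19), Adm (-0.45), Plvap (-0.0155) and Lcn2 (-0.23). With the hybridisation control mean they were Angpt2 (0.043), Apln (0.25), Pdgfb (-0.0104), Pdgfrb (-0.20) and Pecam1 (-0.11). When 1 array was left out, the difference ran from -0.0125 to 0.1135 for Atf4, -0.0206 to 0.161 for Ddit3, -0.25 to 0.23 for Trib3, -0.20 to 0.022 for Angpt2, -0.36 to 0.34 for Esm1, -0.26 to 0.29 for Apln, -0.073 to 0.24 for Adm, -0.042 to 0.24 for Pdgfb, -0.046 to 0.083 for Pdgfrb, -0.076 to 0.14 for Pecam1 and -0.62 to 1.18 for Lcn2. The median of all genes moved by under 0.1 with each scaling.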
